A study of Mus musculus with 24 samples.

Results

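The imprinted growth genes are 10 mouse genes chosen by name: Mest, Igf2, Peg3, Dlk1 and Plagl1, which are expressed from the paternal allele, and Grb10, Igf2r, H19, Meg3 and Cdkn1c, which are expressed from the maternal allele. Each gene was represented by the array row (probe set) whose platform annotation lists that symbol alone. Such a row was found for 9 of the 10 members, among 19938 genes represented in all, and each of the 9 had 1 such row, so no choice between rows was needed. H19 had no row of its own and is given no value. The list was selected on measured values in part, since 2 results of these data were in view when it was drawn up, a lower Mest signal after bone morphogenetic protein 4 (BMP4) in wild-type cells and a much higher Grb10 signal in untreated MuSK-null myoblasts; these are described below without a test. Other differences were tested in a fit over the whole table. Exceptions are those of Mest that use wild-type arrays and those of Grb10 that compare lines or use untreated myoblasts.

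RNA was taken from cultures of 2 immortalised mouse muscle cell lines. The wild-type line carries H-2Kb-tsA58, a temperature-sensitive large T antigen under a promoter that interferon-γ induces; for the MuSK-null (MuSK-/-) line the labels name no transgene but give the same permissive culture. MuSK is a muscle receptor tyrosine kinase best known for its role at the nerve-muscle synapse. Each line was studied as proliferating myoblasts at 33 °C in medium with fetal bovine serum and interferon-γ and as myotubes after 3 days at 37 °C in horse serum, untreated or with 25 ng/ml BMP4 for 8 h. This gives 8 groups of 3 arrays, called biological replicates in the labels without a statement of what was separate between them, so a p-value here reflects only how far these samples scatter, which may be technical. BMP4-treated myoblasts had been deprived of serum for 4 h and myotubes had not; for untreated myoblasts this is not stated, so that withdrawal of serum and BMP4 cannot be told apart at that stage. Each genotype is 1 line, so a difference between genotypes is also a difference between lines.

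Genomic imprinting marks an allele in the germ line so that only the copy from 1 parent is transcribed. Many imprinted genes act on fetal and muscle growth: several paternally expressed genes, such as the growth factor gene Igf2, promote growth, and several maternally expressed genes, such as the insulin receptor adaptor Grb10 and the cell cycle inhibitor Cdkn1c, restrain it. Imprinted genes lie in clusters, where Igf2 neighbours H19, Dlk1 neighbours Meg3, and Peg3 neighbours Usp29 and Zim1. The arrays read the RNA of both alleles together, so the parental origin used here is background and was not measured.

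The members whose signal spanned the widest range were Grb10, Mest and Plagl1, and the sequences before their annotated starts are shown because the results turn on these genes. They are the 250 bases before each start in RefSeq, build GRCm38.p6, 5′ to 3′. Capitals mark the E-box CANNTG, bound by basic helix-loop-helix factors such as MyoD, and GGCGCC, a GC-rich element related to BMP-responsive Smad sites.
Mest upstream start, chr6:30733256-30733505, + strand: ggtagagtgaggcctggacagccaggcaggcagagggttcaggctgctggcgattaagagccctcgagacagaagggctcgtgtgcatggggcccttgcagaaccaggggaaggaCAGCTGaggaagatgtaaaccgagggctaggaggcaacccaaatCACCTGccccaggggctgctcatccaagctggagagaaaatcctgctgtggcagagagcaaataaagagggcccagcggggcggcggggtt
Mest downstream start, chr6:30737800-30738049, + strand: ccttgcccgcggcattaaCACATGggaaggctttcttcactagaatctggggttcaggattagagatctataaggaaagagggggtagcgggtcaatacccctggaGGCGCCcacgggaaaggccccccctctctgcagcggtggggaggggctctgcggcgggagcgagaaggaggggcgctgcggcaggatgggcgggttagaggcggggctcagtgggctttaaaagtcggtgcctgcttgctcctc
Grb10 upstream start, chr11:12037421-12037670, - strand: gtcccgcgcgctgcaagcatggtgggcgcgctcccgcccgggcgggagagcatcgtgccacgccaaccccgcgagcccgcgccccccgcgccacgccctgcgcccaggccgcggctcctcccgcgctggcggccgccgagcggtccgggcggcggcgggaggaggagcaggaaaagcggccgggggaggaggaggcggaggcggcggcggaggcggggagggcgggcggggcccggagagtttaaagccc
Grb10 downstream start, chr11:12027972-12028221, - strand: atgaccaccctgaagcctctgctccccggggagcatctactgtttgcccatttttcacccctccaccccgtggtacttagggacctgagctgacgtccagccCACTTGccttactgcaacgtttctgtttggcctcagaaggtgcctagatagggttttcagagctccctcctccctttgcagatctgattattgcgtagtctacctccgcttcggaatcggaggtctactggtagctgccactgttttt
Plagl1 start, chr10:13090582-13090831, + strand: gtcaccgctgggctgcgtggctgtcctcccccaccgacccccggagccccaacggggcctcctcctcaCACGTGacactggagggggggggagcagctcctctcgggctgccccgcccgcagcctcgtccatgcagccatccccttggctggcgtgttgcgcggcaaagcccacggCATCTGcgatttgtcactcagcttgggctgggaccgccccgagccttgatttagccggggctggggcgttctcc
RefSeq entries were found for 8 of the 10 members, with 15 windows in all. CANNTG was present in 8 of the 15 windows, against 66.2% of the 32817 windows in the table, and GGCGCC in 3 of 15, against 9.59%. A pair of Mest windows that start 3 bases apart hold the same E-box and the same GGCGCC, so each count includes 1 site more than once. Both motifs are palindromic, so a match covers both strands, and matches of the 2 motifs can share at most an outer base. The upstream Grb10 window held 40 CG dinucleotides, a number reached by 1.31% of all windows, and the downstream one held 8, a number reached by 43.0%. A match describes the letters only.

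A pair of members carry a microRNA inside the gene with an array row of its own, Mir335 in Mest and Mir483 in Igf2. Their mature sequences in RefSeq, with the seed (bases 2 to 8) in capitals, are as follows.
mmu-miR-335-5p: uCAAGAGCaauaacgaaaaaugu
mmu-miR-335-3p: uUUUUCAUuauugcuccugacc
mmu-miR-483-5p: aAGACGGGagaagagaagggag
mmu-miR-483-3p: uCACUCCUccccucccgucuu
The 4 arms have 4 different seeds.

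The values are log2 signals, from 2.50 to 15.03 over the table, with array medians of 7.38 to 7.50. A log2 difference of 1 is a doubling of signal. The median SD within groups was 0.09. A set of 4 myoblast arrays, 1 from each myoblast group, was picked because deviations from the group means correlated most on average over all genes. Its correlations of 0.42 to 0.54 are thus the highest of a search. Values without these arrays are given where a call depends on them. Musk, whose probe set may or may not lie in the deleted part, averaged 11.57 ± 0.07 (SD, n = 3) in wild-type myoblasts without BMP4 and 10.85 ± 0.14 (SD, n = 3) in their MuSK-null counterparts. The lines also differed in sex-linked genes. The X-inactivation transcript Xist read 5.69 to 6.31 on the 12 wild-type arrays and 12.90 to 13.43 on the 12 MuSK-null arrays, and the Y-linked gene Uty read 9.15 to 9.90 and 4.25 to 4.97. Group means of the muscle regulator Myod1 lay between 10.91 and 13.32. Of 7 myoblast markers, 1 was higher and 5 were lower in untreated MuSK-null than in wild-type myoblasts. Musk itself is on this list and is among those lower, so its place there adds nothing to the values above. The 8 myotube markers were all lower in untreated MuSK-null than in wild-type myoblasts (median difference -2.20), and 4 of the 8 fell and 0 rose with BMP4 in the myoblasts of each line. Of 8 fibroblast markers, 5 were higher and 1 lower in untreated MuSK-null myoblasts, and 6 higher and 1 lower in untreated MuSK-null myotubes. Over all genes 15.3% were higher and 16% lower in untreated MuSK-null myoblasts, and 19.4% and 18% in untreated myotubes. With BMP4, 5.76% of all genes fell in wild-type and 4.52% in MuSK-null myoblasts. The mean log2 signal of the fibroblast list ran from 8.20 to 8.29 in untreated wild-type myoblasts and from 8.97 to 9.00 in MuSK-null myoblasts, and from 8.71 to 8.81 and 10.00 to 10.10 in the myotubes. The part of these marker differences in the members' values was not tested. The mean of the 5 endothelial markers stayed between 6.37 and 6.66 and that of the 5 macrophage markers between 6.17 and 6.42 on all arrays, and that of the 5 adipocyte markers ran from 6.32 to 6.91. In cultures, fewer cells of a kind and less RNA per cell cannot be told apart.

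Between the lines, most members were higher in MuSK-null cells. A gene was called at a Benjamini-Hochberg adjusted p under 0.05 from limma over all 19938 genes. In untreated myoblasts 6 of 9 members, among them Grb10, whose difference was known, were higher and 2 lower in MuSK-null cells, where 15.3% of all genes were higher and 16% lower (31.3% called in all). In untreated myotubes 7 of 9 were higher and 0 lower, against 19.4% and 18% of all genes (37.4% in all). After BMP4 the counts were 6 higher and 1 lower in myoblasts (14.1% and 15.6% of all genes; 29.7% in all) and 7 higher and 0 lower in myotubes (17.5% and 18.8%; 36.3% in all). The median difference over the 9 members, Mest and Grb10 included, was 0.56 in untreated myoblasts and 1.09 in untreated myotubes. Over all genes it was -0.01 and 0.04. The 0.56 is the value of Mest itself. Among the 5 paternally expressed members, Mest, Peg3, Dlk1 and Plagl1 were higher in MuSK-null cells in all 4 comparisons, and Igf2 was lower in both myoblast comparisons. Among the 4 maternally expressed members with a value, Grb10 and Igf2r were higher in all 4 comparisons, Cdkn1c was lower in untreated myoblasts and higher in both myotube comparisons, and Meg3 was called in 0. The 4 comparisons use 4 separate pairs of groups, but all are of the same 2 lines. They therefore do not repeat the line difference independently. Grb10 and Mest stand in all 4 higher counts and in both medians as a description, since values of these lines helped to choose them. Nothing is read from the medians beside those of all genes.

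The BMP4 responses are counted with Mest, whose lower signal in wild-type cells was known and adds nothing to those 2 counts. In wild-type myoblasts 3 of 9 members (Mest, Cdkn1c and Igf2r) fell and 0 rose, against 5.76% and 5.21% of all genes (11% called in all). In MuSK-null myoblasts the same 3 and Peg3 fell and 0 rose (4.52% and 3.89% of all genes, 8.42% in all). The Peg3 call was lost when any single array of the compared groups was left out. In wild-type myotubes Mest was lower and Plagl1 rose (4.37% and 4.4%; 8.77% in all). In MuSK-null myotubes Mest, Igf2r and Plagl1 fell and Dlk1 rose (5.9% and 5.36%; 11.3% in all). Igf2, Grb10 and Meg3 were called in 0 of the 4 responses. The myoblast responses of Grb10 use arrays that helped to choose it, so they stand there as a description.

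Mest, which encodes an enzyme of the alpha/beta hydrolase fold and is a common marker of paternal expression, was lower with BMP4 in all 4 kinds of culture. Its signal was 13.15, 13.29 and 13.14 in untreated wild-type myoblasts and 11.44, 11.36 and 11.60 after BMP4, a difference of means of -1.73 (SE 0.09). In untreated MuSK-null myoblasts it was 13.78, 13.73 and 13.74, and 12.97, 13.03 and 12.97 after BMP4. The treated arrays lay below the untreated ones in both lines without overlap. In these myoblasts serum withdrawal and BMP4 cannot be told apart. The MuSK-null fall was -0.76 (SE 0.09, adjusted p = 1.57e-06), and it was smaller than the wild-type one by 0.96 (SE 0.13). The wild-type responses were among the values that chose Mest, so differences from them are given without a test. In wild-type myotubes Mest was 11.10, 11.15 and 10.99 without BMP4 and 9.74, 9.68 and 9.27 with it, a difference of -1.51 (SE 0.09), and in MuSK-null myotubes 13.07, 13.06 and 13.03 without and 12.02, 12.13 and 12.09 with it. That MuSK-null fall was -0.97 (SE 0.09, adjusted p = 4.43e-08). The lines' myotube responses differed by 0.54 (SE 0.13).

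Differentiation lowered Mest in both lines. It fell from myoblasts to myotubes by 2.12 log2 units in untreated wild-type cells (SE 0.09). In MuSK-null cells it fell by 0.70 (SE 0.09, adjusted p = 7.27e-07), and the changes differed by 1.42 (SE 0.13). The line difference was 0.56 in untreated myoblasts and 1.98 in untreated myotubes (SE 0.09 each). The untreated wild-type arrays entered the responses that chose Mest, so values that use them are given without a test. In order of group means, Mest ran from 9.56 ± 0.26 (SD, n = 3) in treated wild-type myotubes to 13.75 ± 0.03 (SD, n = 3) in untreated MuSK-null myoblasts; treated MuSK-null myoblasts (12.97 to 13.03) and untreated MuSK-null myotubes (13.03 to 13.07) were neighbours in that order and close to each other. Stage cannot be told apart from temperature, serum and interferon-γ, which changed with it.

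The row of Mir335, whose hairpin lies inside Mest, was also lower after BMP4 in MuSK-null myoblasts (-0.67, SE 0.11, adjusted p = 0.000218), where its signal went from 6.99 to 7.13 untreated to 6.30 to 6.46 treated. In wild-type myoblasts, where Mest had its larger difference, Mir335 differed by -0.34 (SE 0.11, adjusted p = 0.0578). Mir335 was also higher in untreated MuSK-null than in wild-type myoblasts (0.64, adjusted p = 9.36e-05) and fell with differentiation in MuSK-null cells (-0.67, adjusted p = 3.13e-05). Its group means spanned 6.09 to 7.07. The deposited values carry no detection call, so whether a signal of this size is above background cannot be told. Mir483, inside Igf2, stayed between 8.18 and 8.75 on all 24 arrays and was called in 0 of the 13 comparisons.

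**Figure D1:**
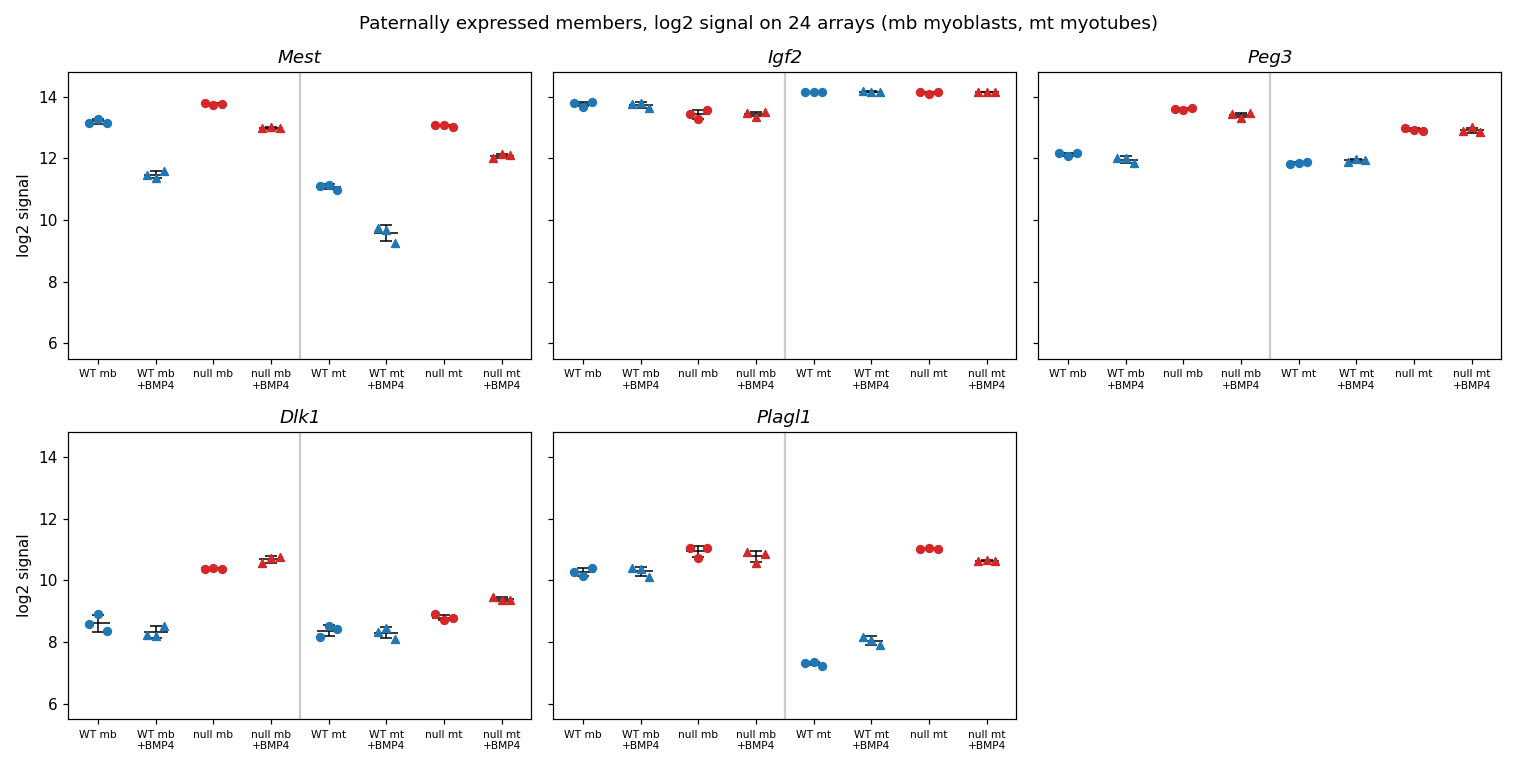
Log2 signal (vertical axis, shared) of the 5 paternally expressed members in the 8 groups (horizontal axis; mb myoblasts, mt myotubes; blue wild type, red MuSK-null; circles untreated, triangles BMP4). Points are the 3 arrays of a group, the bar is their mean and the whiskers are 1 SD. Mest is lower with BMP4 in all 4 pairs of groups, and Plagl1 is low only in wild-type myotubes (7.23 to 8.17). Treated myoblasts had also been deprived of serum for 4 h.

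Igf2, the fetal insulin-like growth factor that myoblasts secrete as they differentiate, had a high signal in every group, from 13.28 to 14.16 over the 24 arrays. BMP4 differences were -0.03, 0.01, 0.01 and 0.02 in wild-type myoblasts, MuSK-null myoblasts, wild-type myotubes and MuSK-null myotubes, with 95% intervals that together ran from -0.17 to 0.16. It rose with differentiation, by 0.39 in wild-type cells (SE 0.07, adjusted p = 3.88e-05) and by 0.70 in MuSK-null cells (SE 0.07, adjusted p = 7.51e-09). In untreated myoblasts it was lower in the MuSK-null line by 0.34 (a difference of -0.34, SE 0.07, adjusted p = 0.000373), with 13.42, 13.28 and 13.58 against 13.78, 13.68 and 13.82. In untreated myotubes the lines overlapped, at 14.14 to 14.15 in wild-type and 14.09 to 14.15 in MuSK-null cells (-0.03, adjusted p = 0.811). The difference of the differentiation changes was 0.31 (SE 0.10, adjusted p = 0.0157), and leaving out the second array of untreated MuSK-null myoblasts ended that call (0.24, adjusted p = 0.0572). The myotube values lie within 1 log2 unit of the highest value in the table, and how far the probe set can still rise there is not known.

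Dlk1, a transmembrane protein related to the Notch ligands that acts in fat and muscle precursors, separated the lines most clearly in myoblasts. Untreated signals were 8.57, 8.90 and 8.35 in wild-type and 10.37, 10.41 and 10.37 in MuSK-null myoblasts, a difference of 1.77 (SE 0.12, adjusted p = 3.12e-11). In untreated myotubes they were 8.17, 8.52 and 8.41 against 8.89, 8.71 and 8.77, a difference of 0.43 (SE 0.12, adjusted p = 0.00618), and leaving out the first array of untreated wild-type myotubes ended that call (0.33, adjusted p = 0.0522). Dlk1 fell with differentiation in MuSK-null cells (-1.59, SE 0.12, adjusted p = 1.04e-10), and the change was -0.25 (SE 0.12, adjusted p = 0.103) in wild-type cells. These changes differed by -1.35 (SE 0.17, adjusted p = 1.23e-06).

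BMP4 raised Dlk1 in MuSK-null myotubes, from the values above to 9.45, 9.35 and 9.36 (0.59, SE 0.12, adjusted p = 0.00112). In wild-type myotubes the difference was -0.07 (SE 0.12, adjusted p = 0.829), and the responses differed by 0.66 (SE 0.17, adjusted p = 0.0279). That last call depended on single arrays: removing any 1 of 7 of the 12 arrays ended it, with adjusted p from 0.0156 to 0.0941 over the 12. In myoblasts the differences were -0.29 (adjusted p = 0.145) in wild type and 0.29 (adjusted p = 0.172) in MuSK-null cells. Leaving out the third array of untreated or the third of treated wild-type myoblasts made the wild-type one a call (adjusted p = 0.0284 and 0.045). The 2 myoblast responses differed by 0.59 (SE 0.17, adjusted p = 0.0761). This passed with the set of 4 arrays as a block (adjusted p = 0.0261) and with trend and robust variance (adjusted p = 0.045). It also passed without the third array of untreated or of treated wild-type myoblasts (adjusted p = 0.0193 and 0.0286). Leaving out each of the 12 arrays gave adjusted p from 0.0193 to 0.216.

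Plagl1, a zinc-finger transcription factor that restrains the cell cycle and acts on other imprinted genes, was low in wild-type myotubes alone among the 4 kinds of culture. Untreated wild-type signals were 10.27, 10.14 and 10.40 in myoblasts and 7.32, 7.35 and 7.23 in myotubes, which is a drop, at -2.97 (SE 0.10; adjusted p = 6.26e-17). MuSK-null signals were 11.04, 10.73 and 11.05 in myoblasts and 11.01, 11.04 and 11.02 in myotubes, a difference of 0.08 (SE 0.10, adjusted p = 0.591). The changes differed by 3.05 (SE 0.14, adjusted p = 7.82e-14). The untreated wild-type myotube signals lie below all array medians (7.38 to 7.50). Whether they are above background cannot be told from the deposited values, so differences that use them cannot be read as folds. BMP4 raised Plagl1 in wild-type myotubes to 8.17, 8.05 and 7.89 (0.74, SE 0.10, adjusted p = 1.36e-05) and lowered it in MuSK-null myotubes to 10.61, 10.66 and 10.64 (-0.39, SE 0.10, adjusted p = 0.0103). In neither case did treated and untreated arrays overlap, and the responses differed by -1.13 (SE 0.14, adjusted p = 2.26e-05). Treated wild-type myotubes still lay below every MuSK-null array (10.57 to 11.05). In myoblasts the BMP4 differences were 0.02 (adjusted p = 0.975) in wild type and -0.16 (adjusted p = 0.445) in MuSK-null cells.

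Peg3, a large zinc-finger protein, was higher on every MuSK-null array (12.85 to 13.64) than on any wild-type array (11.80 to 12.16). Untreated signals were 12.16, 12.07 and 12.16 in wild-type and 13.61, 13.58 and 13.64 in MuSK-null myoblasts, a difference of 1.47 (SE 0.06, adjusted p = 6.21e-15). In untreated myotubes the line difference was 1.09 (SE 0.06, adjusted p = 1.5e-12). Peg3 fell with differentiation by 0.29 in wild-type (SE 0.06, adjusted p = 0.000407) and by 0.67 in MuSK-null cells (SE 0.06, adjusted p = 4e-09), and these changes differed by -0.38 (SE 0.09, adjusted p = 0.00186). After BMP4 it was lower in MuSK-null myoblasts (13.44, 13.32 and 13.45; -0.21, SE 0.06, adjusted p = 0.0408). In wild-type myoblasts treated arrays (12.02, 12.02 and 11.84) also lay below untreated ones, by a similar amount (-0.18, SE 0.06, adjusted p = 0.0822; 0.0164 with the set of 4 arrays as a block and 0.0237 with trend and robust variance), and the responses differed by -0.03 (95% interval -0.21 to 0.15, adjusted p = 0.975). The MuSK-null call was lost with only the 2 groups in the fit (adjusted p = 0.165). It was also lost with the replicate number as a block, for groups where the numbers pair the arrays (adjusted p = 0.0543). The same held without the set of 4 arrays (adjusted p = 0.102) and on leaving out any of the 6 arrays (adjusted p from 0.0519 to 0.178).

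Grb10, an adaptor that binds the insulin and IGF1 receptors and limits their signal, separated the lines most of all members. Its signal was 6.43 to 7.10 on the 12 wild-type arrays and 12.70 to 12.92 on the 12 MuSK-null arrays. In untreated myoblasts it was 7.09, 6.55 and 6.94 in wild-type and 12.89, 12.70 and 12.84 in MuSK-null cells, which sets the lines apart by 5.95 (SE 0.13). The difference was 6.09 in untreated myotubes, 6.22 in treated myoblasts and 5.97 in treated myotubes (SE 0.13 each). Of 19938 genes, 7 had group means that spanned a wider range than those of Grb10 (6.23). Whether the wild-type signal is above background cannot be told from the deposited values, so the difference cannot be read as a fold. In myotubes BMP4 gave no call in either line, with differences of 0.08 in wild-type and -0.04 in MuSK-null cells (adjusted p = 0.809 and 0.933). The 95% interval of the MuSK-null one ran from -0.30 to 0.23. In myoblasts the BMP4 differences were -0.21 in wild-type and 0.06 in MuSK-null cells (SE 0.13 each). Differentiation differences were -0.07 in wild-type and 0.07 in MuSK-null cells (SE 0.13 each). Untreated myoblasts of both lines were among the values that chose Grb10, so differences that use them are given without a test.

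Igf2r, the receptor that carries Igf2 to lysosomes for degradation, was higher in MuSK-null cells and in myotubes, and lower with BMP4 in 3 of 4 kinds of culture. In untreated myoblasts it was 11.16, 11.19 and 11.16 in wild type and 11.64, 11.64 and 11.70 in MuSK-null cells, and in untreated myotubes 11.62, 11.57 and 11.63 against 12.19, 12.24 and 12.24. The line differences were 0.48 and 0.62 (SE 0.05 each, adjusted p = 1.09e-07 and 1.53e-09). It rose with differentiation in both lines, by 0.43 (SE 0.05, adjusted p = 2.81e-07) in wild type and 0.57 (SE 0.05, adjusted p = 3.82e-09) in MuSK-null cells, with a difference of these changes of 0.14 (95% interval -0.02 to 0.29, adjusted p = 0.191). In BMP4-treated myoblasts it was lower by 0.36 (SE 0.05, adjusted p = 2.4e-05) in wild-type and by 0.28 (SE 0.05, adjusted p = 0.000603) in MuSK-null cells. Serum withdrawal and BMP4 cannot be told apart there. In MuSK-null myotubes it was lower with BMP4 by 0.24 (SE 0.05, adjusted p = 0.0026). In wild-type myotubes the difference was -0.15 (SE 0.05, adjusted p = 0.0793), also with treated arrays below untreated ones. It passed without the set of 4 myoblast arrays (adjusted p = 0.0432), which are not in this comparison, so the difference itself did not change. It also passed with trend and robust variance (adjusted p = 0.0356) and without the dimmest 0.25 of genes (adjusted p = 0.0498). With any single array of the compared groups left out, adjusted p ran from 0.112 to 0.205. The responses of the lines differed by 0.08 in myoblasts and -0.09 in myotubes, with 95% intervals of -0.08 to 0.23 and -0.24 to 0.07.

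Cdkn1c encodes the cyclin-dependent kinase inhibitor p57 and is known for its part in the cell cycle exit of muscle precursors. It was lower in BMP4-treated myoblasts, where serum withdrawal and BMP4 cannot be told apart. In wild-type myoblasts its signal was 9.77, 10.05 and 9.71 untreated and 8.42, 8.28 and 8.31 treated (-1.51, SE 0.10, adjusted p = 8.14e-11). In MuSK-null myoblasts it was 9.25, 9.40 and 9.30 untreated and 8.74, 8.38 and 8.63 treated (-0.73, SE 0.10, adjusted p = 7.78e-06). The responses differed by 0.77 (SE 0.14, adjusted p = 0.00152). The wild-type line started higher by 0.52, a line difference of -0.52 (SE 0.10, adjusted p = 0.000139), and the treated arrays of the lines overlapped, with a difference of 0.25 (SE 0.10, adjusted p = 0.0561) that passed without the set of 4 arrays (0.34, adjusted p = 0.00978).

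In myotubes the order of the lines was the reverse. Untreated Cdkn1c signals were 8.82, 8.58 and 8.69 in wild-type and 10.22, 10.27 and 10.24 in MuSK-null myotubes, a difference of 1.55 (SE 0.10, adjusted p = 7.11e-12). Cdkn1c fell with differentiation by 1.15 in wild-type cells (SE 0.10, adjusted p = 6.9e-10) and rose by 0.93 in MuSK-null cells (SE 0.10, adjusted p = 2.61e-08), and these changes differed by 2.07 (SE 0.14, adjusted p = 3.79e-11). BMP4 differences in myotubes were -0.07 (adjusted p = 0.772) in wild type and -0.27 (SE 0.10, adjusted p = 0.0867) in MuSK-null cells. In MuSK-null myotubes treated arrays (9.95, 9.98 and 10.00) lay below untreated ones. The MuSK-null difference passed with only the 2 groups in the fit (adjusted p = 0.026). It also passed without the set of 4 myoblast arrays (adjusted p = 0.0231), which are not in this comparison, so the difference itself did not change. The proliferation markers moved with stage too: all 6 measured fell with differentiation in both lines (24.7% of all genes in wild-type and 23.4% in MuSK-null cells). Of the 6, 5 were higher in untreated MuSK-null than in wild-type myotubes (19.4% of all genes), and 3 were lower in untreated MuSK-null myoblasts (16%). Their part in the Cdkn1c values was not tested. With BMP4, 0 of the 6 were called in any of the 4 responses. Of all genes 8.42% to 11.3% were called there, so 0 of 6 is near the share and nothing is read from it.

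Meg3, the long non-coding RNA expressed from the maternal copy of the Dlk1 cluster, stayed between 6.08 and 6.75 on all 24 arrays and was called in 0 of 13 comparisons, against 2 to 8 of the 9 members in each of them. Its largest line difference was -0.26 in treated myotubes (SE 0.11, adjusted p = 0.0893). Whether this signal is above background cannot be told from the deposited values.

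**Figure D2:**
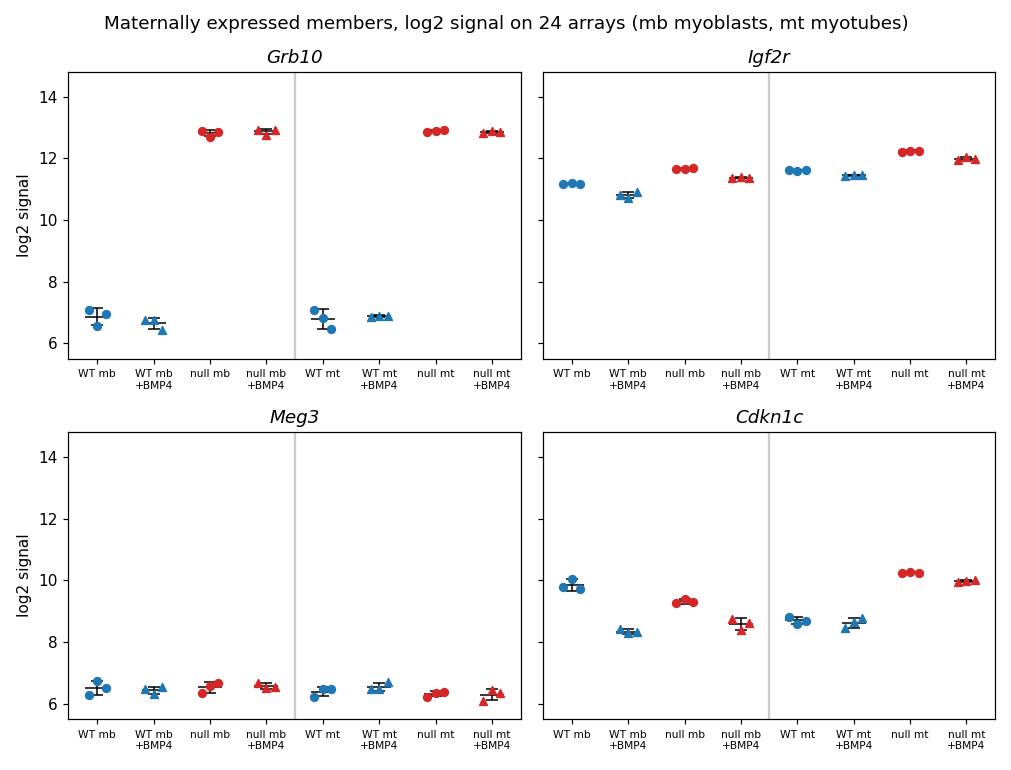
Log2 signal (vertical axis, shared) of the 4 maternally expressed members with a row, in the 8 groups (mb myoblasts, mt myotubes; blue wild type, red MuSK-null; circles untreated, triangles BMP4). Points are the 3 arrays of a group, the bar is their mean and the whiskers are 1 SD. Grb10 lies at 6.43 to 7.10 on all wild-type and 12.70 to 12.92 on all MuSK-null arrays, and Cdkn1c is highest in untreated wild-type myoblasts and in MuSK-null myotubes.

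In the whole-table fit the BMP4 response differed between the lines for 2 of 9 members in myoblasts (Mest and Cdkn1c, both with a smaller fall in MuSK-null cells; 1.17% of all genes had a higher and 1.22% a lower response there, 2.39% in all) and of 3 of 9 in myotubes (Mest and Dlk1 higher, Plagl1 lower; 1.5% and 1.71% of all genes, 3.21% in all). Mest stands in both counts only as a description, since its wild-type responses helped to choose it, and nothing is read from its place there. The myotube count went to 1, Plagl1, without the second array of untreated wild-type myotubes or without the second array of treated MuSK-null myotubes. Differentiation moved 6 of 9 members in wild-type cells, 2 up and 4 down (20.3% and 24.7% of all genes, 45% in all), and 6 of 9 in MuSK-null cells, 3 up and 3 down (18.2% and 23.4%, 41.6% in all). The differentiation change differed between the lines for 6 of 9 members (14.9% of all genes higher and 14.1% lower, 29.1% in all). Mest, Igf2, Plagl1 and Cdkn1c had a higher and Peg3 and Dlk1 a lower change in MuSK-null cells. In the differentiation counts that use wild-type cells, Mest again stands as a description. Grb10, which was not called in the differentiation counts, also stands there as a description.

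**Figure D3:**
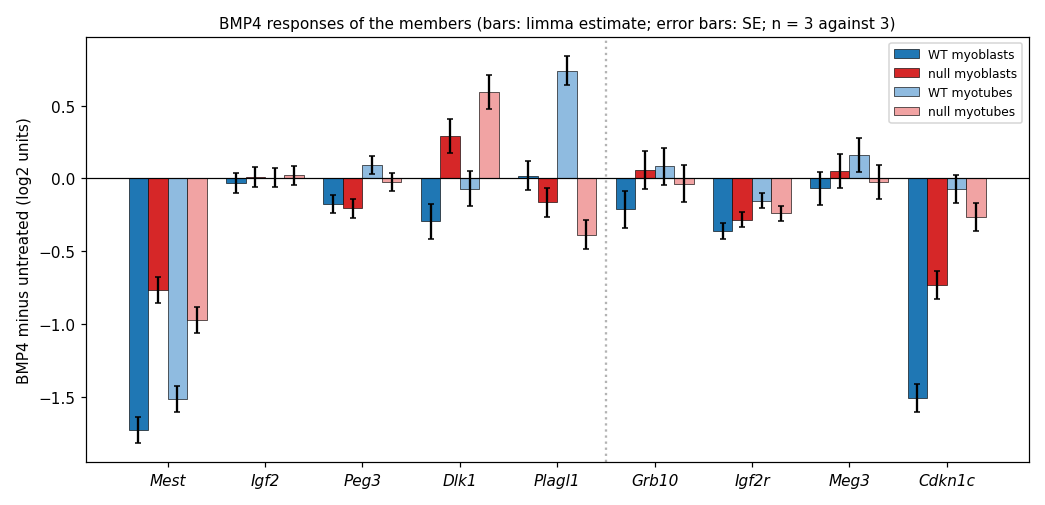
BMP4 response of the 9 members with a row (horizontal axis, paternally expressed to the left of the dotted line) as log2 signal with BMP4 minus log2 signal without (vertical axis), for the 4 kinds of culture. Bars are limma estimates from 3 against 3 arrays and whiskers are their SE. Mest is below 0 in all 4 (-0.76 to -1.73), and Plagl1 is above 0 in wild-type myotubes (0.74) and below 0 in MuSK-null myotubes (-0.39). Treated myoblasts had also been deprived of serum for 4 h.

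The genes next to each member along the chromosome were read in the same comparisons. Taking the 2 nearest measured genes on each side in RefSeq order gave 32 genes that are not members, of which 5 were higher and 6 lower in untreated MuSK-null than in wild-type myoblasts, and 8 higher and 2 lower in untreated myotubes. These counts are near the shares of all genes (31.3% called in myoblasts and 37.4% in myotubes), so the values that follow describe single genes. Beside the 5.95 of Grb10, its neighbours had other values: Ddc, the gene of an enzyme of catecholamine synthesis, differed by -0.91 (adjusted p = 3.12e-08), Cobl by -0.83 (adjusted p = 7.73e-06) and Fignl1 by -0.64 (adjusted p = 1.05e-05) in untreated myoblasts, all lower in MuSK-null cells, and Vstm2a by 0.17 (adjusted p = 0.231). In untreated myotubes Cobl and Fignl1 were higher in MuSK-null cells instead, by 0.49 (adjusted p = 0.00227) and 0.32 (adjusted p = 0.0103), and Ddc differed by 0.12 (adjusted p = 0.342). Around Peg3, both imprinted neighbours were higher in MuSK-null myoblasts, Zim1 by 1.28 (adjusted p = 9.37e-12) and Usp29 by 0.65 (adjusted p = 4.43e-06), and also in myotubes, by 0.53 and 0.52 (adjusted p = 9.82e-06 and 6.69e-05). Around Dlk1, the differences in untreated myoblasts were -0.10 for Begain, 0.02 for Meg3, -0.07 for Rtl1 and 0.06 for Wdr25 (adjusted p = 0.347, 0.939, 0.72 and 0.711), beside 1.77 for Dlk1 itself. Next to Mest, Cep41 and Cpa1 were higher in MuSK-null myoblasts by 1.00 (adjusted p = 4.23e-11) and 2.27 (adjusted p = 9.95e-13), and Copg2 differed by 0.08 (adjusted p = 0.406). With BMP4, Cep41 differed by -0.30 (adjusted p = 0.00365) in wild-type and -1.12 (adjusted p = 6.08e-11) in MuSK-null myoblasts, and Cpa1 by -0.74 (adjusted p = 0.000177) and -2.12 (adjusted p = 4.52e-11), beside -1.73 and -0.76 for Mest. In wild-type myotubes they differed by -0.02 and 0.07 (adjusted p = 0.92 and 0.839), beside -1.51 for Mest, and in MuSK-null myotubes by -0.48 (adjusted p = 2.1e-05) and -0.17 (adjusted p = 0.547), beside -0.97. Next to Igf2, Tnnt3, a fast-muscle troponin gene that is also among the myotube markers, was lower in MuSK-null myoblasts (-1.89, adjusted p = 3.23e-16). Around Cdkn1c, 0 of 4 neighbours was called in untreated myoblasts, and Slc22a18 was lower in untreated MuSK-null myotubes (-0.40, adjusted p = 0.00185).

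**Figure D4:**
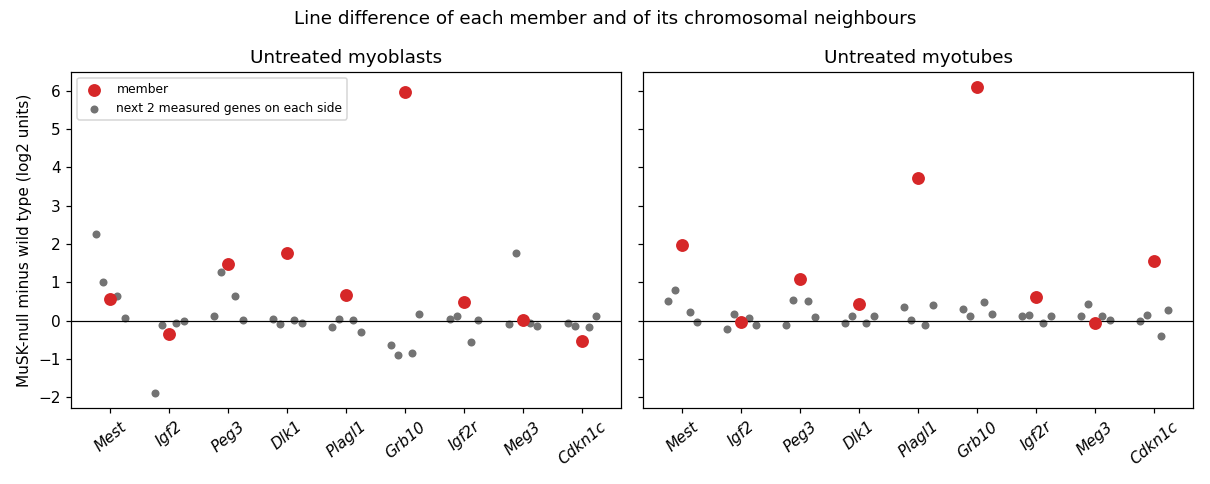
MuSK-null minus wild-type log2 signal (vertical axis) of each member (red) and of the 2 nearest measured genes on each side of it (grey), in untreated myoblasts (left) and untreated myotubes (right). Grb10 lies at 5.95 and 6.09 with neighbours between -0.91 and 0.49; the grey point at 1.77 beside Meg3 is Dlk1.

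Other imprinted genes were counted from lists drawn up from general knowledge of imprinting, with earlier results of these data known. Of 18 other paternally expressed genes with a row, 7 were higher and 3 lower in untreated MuSK-null than in wild-type myoblasts, and 8 higher and 2 lower in untreated myotubes, beside 15.3% and 16%, and 19.4% and 18%, of all genes. The medians were 0.01 and 0.17, against -0.01 and 0.04 over all genes. Slc38a4, an amino acid transporter of the placenta, was higher by 0.80 in myoblasts (adjusted p = 8.74e-08) and 1.96 in myotubes (adjusted p = 1.55e-14). Peg10, a gene derived from a retrotransposon and needed in the placenta, was higher by 0.46 (adjusted p = 1.24e-05) and 1.46 (adjusted p = 4.99e-14). Zdbf2 was lower by 2.50 in untreated MuSK-null myoblasts (a difference of -2.50, adjusted p = 6.16e-14) and by 0.64 in untreated myotubes (-0.64, adjusted p = 0.000141). Like Mest, Slc38a4 and Peg10 fell more with differentiation in wild-type cells (-1.94 and -1.63) than in MuSK-null cells (-0.79 and -0.62). Their changes differed by 1.15 (adjusted p = 1.11e-07) and 1.01 (adjusted p = 2.81e-08). Of the 18 genes, 4 had a higher and 1 a lower change in MuSK-null cells. That is near the share of all genes (14.9% and 14.1%, 29.1% in all), so these values describe single genes.

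Of 17 other maternally expressed genes, 3 were higher and 4 lower in untreated MuSK-null myoblasts, and also 3 and 4 in untreated myotubes, with medians of -0.10 and 0.08. The 7 called of 17 are near the shares of all genes, 31.3% and 37.4%. Asb4 was higher by 2.14 in myoblasts (adjusted p = 1.92e-14) and 1.53 in myotubes (adjusted p = 8.2e-12). The BMP4 counts were as follows. In wild-type myoblasts 2 of the 18 paternally expressed genes fell and 0 rose, Airn, which is transcribed across Igf2r on the opposite strand, by 0.76 (adjusted p = 0.00805) and Zdbf2 by 0.54 (adjusted p = 0.00299). In the same cells 2 of the 17 maternally expressed genes fell and 0 rose, Osbpl5 by 0.45 and Zim1 by 0.34 (adjusted p = 1.72e-05 and 0.00537), against 5.76% lower and 5.21% higher among all genes. In MuSK-null myoblasts 0 of the 18 were called (8.42% of all genes) and 1 of the 17 rose and 2 fell, with Asb4 up by 0.66 (adjusted p = 3.59e-05). In wild-type myotubes 1 of the 18 and 1 of the 17 fell and 0 rose (8.77% of all genes called). In MuSK-null myotubes 1 of the 18 rose and 1 fell, and 1 of the 17 rose and 4 fell (11.3% of all genes called), among them Tssc4 (-0.44, adjusted p = 0.00139), Asb4 (0.36, adjusted p = 0.0147) and Copg2 (-0.25, adjusted p = 0.00583).

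**Figure D5:**
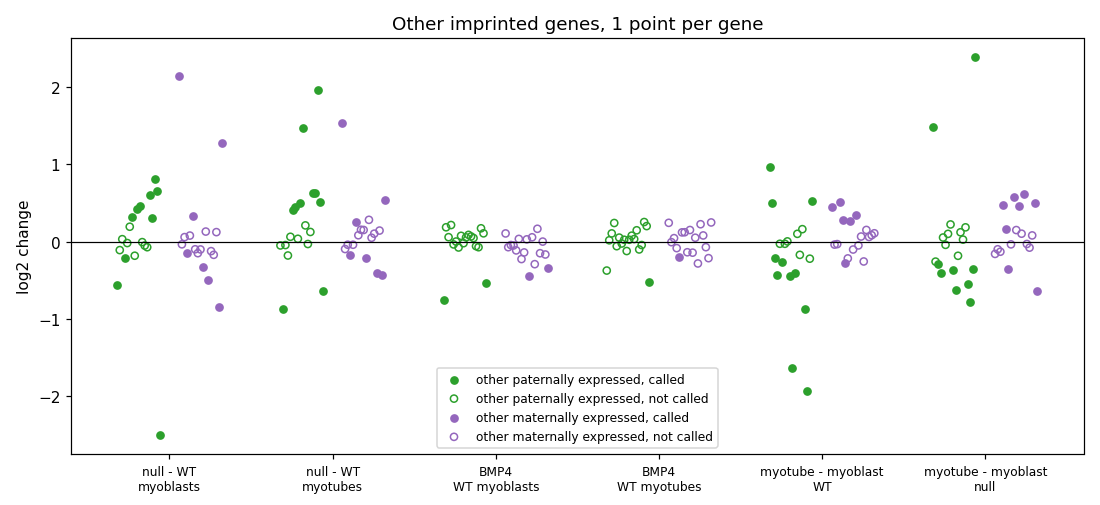
Log2 change (vertical axis) of other imprinted genes in 6 comparisons (horizontal axis), 1 point per gene, green for 18 paternally and purple for 17 maternally expressed genes; filled points were called by limma at an adjusted p under 0.05 and open points were not. In the BMP4 column of wild-type myoblasts 2 green and 2 purple points are filled, and the lowest point of all is Zdbf2 at -2.50 between the lines' myoblasts.

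Genes that act with Igf2, Igf2r and Grb10 in insulin-like growth factor signalling were also read. Of 15 measured partners, 7 were higher and 3 lower in untreated MuSK-null myoblasts and 9 higher and 2 lower in untreated myotubes, beside 15.3% and 16%, and 19.4% and 18%, of all genes. Igf2bp3 and Igf2bp1, RNA-binding proteins known for binding Igf2 messenger RNA in the embryo, were higher by 4.03 and 2.99 in myoblasts (adjusted p = 7.63e-21 and 2.12e-17), and by 3.55 and 3.12 in myotubes (adjusted p = 2.33e-20 and 1.14e-17). Their untreated wild-type means, 6.49 and 6.76 in myoblasts and 6.08 and 6.40 in myotubes, are as low as those for which background cannot be told, so these differences cannot be read as folds. Igfbp4, a binding protein that holds back IGFs, was higher by 2.64 and 2.26 (adjusted p = 1.02e-17 and 1.99e-16). With BMP4, 4 of 15 rose and 3 fell in wild-type myoblasts (5.21% and 5.76% of all genes). Pappa, a protease that cleaves Igfbp4, rose by 0.96 (adjusted p = 1.13e-06), and Igf1 fell by 0.71 (adjusted p = 1.46e-06). In MuSK-null myoblasts 3 rose and 2 fell (3.89% and 4.52% of all genes), with Igfbp5 at -1.51 (adjusted p = 7.31e-12).

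The genes most like a member were those with the highest Pearson correlation with it over the 8 group means, among 4046 genes whose group means spanned at least 1 log2 unit. Groups of 1 line share that line, so these values describe the pattern only. For Grb10 they were Xist (r = 0.999), Igf2bp1 (0.997) and the X-linked gene Kdm6a (0.996). Peg3 was most like Mageh1, Cers4 and Nynrin (0.991, 0.990 and 0.988), and Plagl1 was most like Ltbp4, Tmem164 and Col6a1 (0.989, 0.988 and 0.986). For Mest they were Jade1, Pxdn and Tns2 (0.983, 0.974 and 0.944), for Dlk1 Jade2, Slc6a15 and Spock2 (0.988, 0.978 and 0.977), for Igf2r Magef1, Ppm1k and Dcn (0.983, 0.977 and 0.969) and for Cdkn1c Lypd6, Dtx4 and Prr5 (0.950, 0.938 and 0.935). Dcn is also one of the fibroblast markers. Among the members themselves, Peg3 and Grb10 had r = 0.94, Peg3 and Dlk1 0.92, and Igf2 and Dlk1 -0.71.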

How the data were processed

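Log2 signals of 35556 probe sets on 24 arrays were deposited by the authors; the log2 scale was read from the values. Per the submitters' processing notes, the tools were Affymetrix Expression Console and Partek; the sources used here do not give the normalization. Platform annotation lists 1 gene for 21789 rows, several for 1621 and none for 12146. Rows with 1 gene were used, and for 999 genes with several rows the one with the highest mean was kept, which left 19938 genes. All arrays entered 1 limma 3.58.1 fit in R 4.3.3 with a mean per group (16 residual degrees of freedom), 13 contrasts and Benjamini-Hochberg adjustment over all genes, with calls at an adjusted p under 0.05. For arrays their number limits the precision, and no count stands behind a value. The method was tested on simulated data.

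The members and lists were chosen with earlier results of these data known. Named genes are the members, up to 3 called genes per list and contrast, the chromosomal neighbours (added after their values were seen) and the 3 genes most like each member whose group means span at least 1 log2 unit. Replicate numbers paired the arrays, by correlated deviations above 0.1 in all 3 pairs, in 2 contrasts, untreated MuSK-null against wild-type myoblasts (0.22 to 0.42) and BMP4 in MuSK-null myoblasts (0.12 to 0.46). Alternatives were a fit on the compared groups, trend and robust variance, median centring of arrays, quantile normalization, leaving out the dimmest 0.25 of genes by mean, a replicate block and leaving out each array; the set of 4 arrays as a block, or left out, was added after seeing the data. Gene order and sequences come from RefSeq (GRCm38.p6), and coordinates are given for printed sequences only, since no build is named for the arrays.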

Additional observations from a re-analysis of the deposited data

Results flagged for a closer look

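Several members changed differently in the 2 lines under the same contrast, by the interaction test of limma. With BMP4 the difference between lines (MuSK-null minus wild type) was 0.77 for Cdkn1c in myoblasts, and 0.66 for Dlk1 and -1.13 for Plagl1 in myotubes. For differentiation of untreated cells they were 0.31 for Igf2, -0.38 for Peg3, -1.35 for Dlk1, 3.05 for Plagl1 and 2.07 for Cdkn1c. The BMP4 responses of Mest differed by 0.96 in myoblasts and 0.54 in myotubes, and its differentiation changes by 1.42. These Mest values are a description with no test, since wild-type arrays in them helped to choose it. Line, sex of the line and MuSK genotype cannot be told apart in any of these.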

How the results depend on the processing

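Of 117 changes of the 9 members over 13 contrasts, 65 were called. Under the alternatives 1800 values were computed, of which 1760 kept their direction and side of the threshold, 0 called changes reversed, 21 values lost a call (5 changes, 4 of them given beside the result and the other that of the Mest myotube response, which carries no test) and 19 gained one. The number of members called stayed within 1.5 times its main value except for the genotype difference of myotube BMP4 responses, which, with Mest in the count, ran from 1 to 3 with each array left out. With the replicate block the members called were 8 in untreated myoblasts between lines and 3 in the BMP4 response of MuSK-null myoblasts, where Peg3 was lost (adjusted p = 0.0543); the block ended no other call of a member. No second row existed for any member, so the next row could not be tried. The arrays' number and unknown background limit Meg3, wild-type Grb10, Mir335 and Plagl1 in untreated wild-type myotubes.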
